A study of Rattus norvegicus with 4 samples.

Results

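The cytosolic ribosomal protein genes of rat CG4 cells were followed in an RNA-seq experiment on raised Phf8, a histone lysine demethylase. Members were all rows of the deposited gene table whose name is that of a protein of the small subunit (Rps and a number, or Rpsa) or of the large subunit (Rpl and a number, or Rplp0 to Rplp2), which gave 71 of 14410 listed genes, 28 of the small and 43 of the large subunit. All 71 passed the filter on low values and were tested. The names Rpl10a, Rpl23a, Rplp1, Rps7, Rps9, Rps13 and Rps26 were not analysed here.

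CG4 is an oligodendroglial line that is kept as progenitors with PDGF-AA and bFGF and that forms oligodendrocytes in SATO medium. Phf8oe cells (labelled WT, Phf8+ GFP+; 2 libraries) had received a CAG-Phf8-IRES-GFP retrovirus, and ctrl cells (labelled WT, GFP+; 2 libraries) a CAG-IRES-GFP retrovirus. Both were sorted for GFP, expanded, and taken after 3 days of differentiation, so both groups carry a virus, GFP and the differentiating medium. The promoter is the ubiquitous CAG, the cells are sorted pools of a single line, and the labels call the libraries biological replicates without saying whether they came from separate transductions, so the p-values measure only the spread between these libraries.

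The cytosolic ribosome translates all nuclear messages. Its small subunit reads the messenger RNA and its large subunit joins the amino acids and passes the growing chain through an exit tunnel. Every ribosome holds its proteins in equal number, except those of the stalk, and their messenger RNAs share a run of C and T letters at the 5′ end, the terminal oligopyrimidine or TOP tract, through which mTORC1 and the repressor Larp1 control their translation and stability together. Oligodendrocytes make myelin proteins in large amounts, and the message of Mbp is translated in their processes.

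The deposited normalized counts summed to 41149255 and 40260658 in Phf8oe replicates 1 and 2 and to 40336248 and 39945215 in ctrl replicates 1 and 2. The reads behind them were estimated at about 43100000 and 28400000 in Phf8oe and 47800000 and 39300000 in ctrl. Phf8 itself had 5650 and 10796 normalized counts in Phf8oe and 2026 and 2205 in ctrl, and at a log2 fold change of 1.89 (SE 0.35) it did not pass the threshold (limma adjusted p = 0.0631). With a library left out its adjusted p ran from 9.51e-12 to 0.348. All 10 oligodendrocyte markers were listed, their summed normalized counts being 749542 and 687111 in Phf8oe and 488987 and 483650 in ctrl. None of the 3 endothelial markers, 1 of 6 fibroblast and pericyte markers (Col1a1, up to 454) and 2 of 6 microglial markers (summing to 61 and 71 in Phf8oe and 101 and 63 in ctrl) were listed. The 5 listed astrocyte markers, mostly Gfap, summed to 12545 and 21452 in Phf8oe and to 80336 and 82115 in ctrl, although Aldh1l1 (32 and 44 in Phf8oe, 9 and 10 in ctrl) and Slc1a3 (1614 and 1692 in Phf8oe, 1063 and 1192 in ctrl) rose (adjusted p = 0.0251 and 0.0254). The 4 progenitor markers, mostly Ptprz1, summed to 52027 and 42717 in Phf8oe and to 67876 and 67660 in ctrl. Of these Pdgfra fell, and Ptprz1 and Cspg4 lay lower without passing. Gpr17 had 3679 and 2370 in Phf8oe and 2070 and 2479 in ctrl (log2 fold change 0.38), where the groups overlapped. The 6 neuronal markers summed to 6142 and 6752 in Phf8oe and to 12983 and 9518 in ctrl. The 3 Schwann cell markers overlapped between the groups, at 1891 and 3600 in Phf8oe and 3260 and 1750 in ctrl. The part of these shifts in the ribosomal protein result was not tested, and in bulk RNA a change in the number of cells of a type and a change in RNA per cell cannot be told apart.

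Ribosomal protein messages were higher in Phf8oe as a body, by a small and even amount. Of the 71 genes, 18 rose (25.4%), none fell, and 53 did not pass, where 7.64% of all 14368 tested genes passed, 2.99% rising and 4.65% falling. The median log2 fold change was 0.38, or 1.31-fold, against 0.003 for all tested genes, and 69 of 71 lay above 0. At an unadjusted p under 0.05, 58 of the 71 lay higher and none lower. Of all 14368 tested genes 1826 lay higher at that level and 1952 lower. Limma-voom called 21 members higher (3.36% of all tested genes) and none lower. In 64 of the 71 both Phf8oe libraries lay above both ctrl libraries, as did 28.9% of all tested genes, and in none were both below, as in 28.7% of all tested genes. The count of 18 rests on both ctrl libraries. It was 0 without ctrl replicate 1 (0.00701% of all tested genes rose) and 0 without ctrl replicate 2 (0.35%), with median log2 fold changes of 0.31 and 0.45 and 16 and 50 members higher at an unadjusted p under 0.05. It was 42 without Phf8oe replicate 1 (5.0%) and 23 without Phf8oe replicate 2 (6.49%). Scaling by totals gave 15 (2.94%), upper quartile scaling 33 (4.23%) and scaling without ribosomal protein and mitochondrial genes 24 (3.63%). The count was 6 without robust moderation (1.78%), 0 with no variance trend (0.0%, with 47 members at an unadjusted p under 0.05), 2 with a replicate block (0.452%), 35 with the numbers crossed (7.35%) and 0 in a test against a 1.5-fold change (0.0139%). In each of these fits the members' median log2 fold change lay between 0.31 and 0.45.

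**Figure D1:**
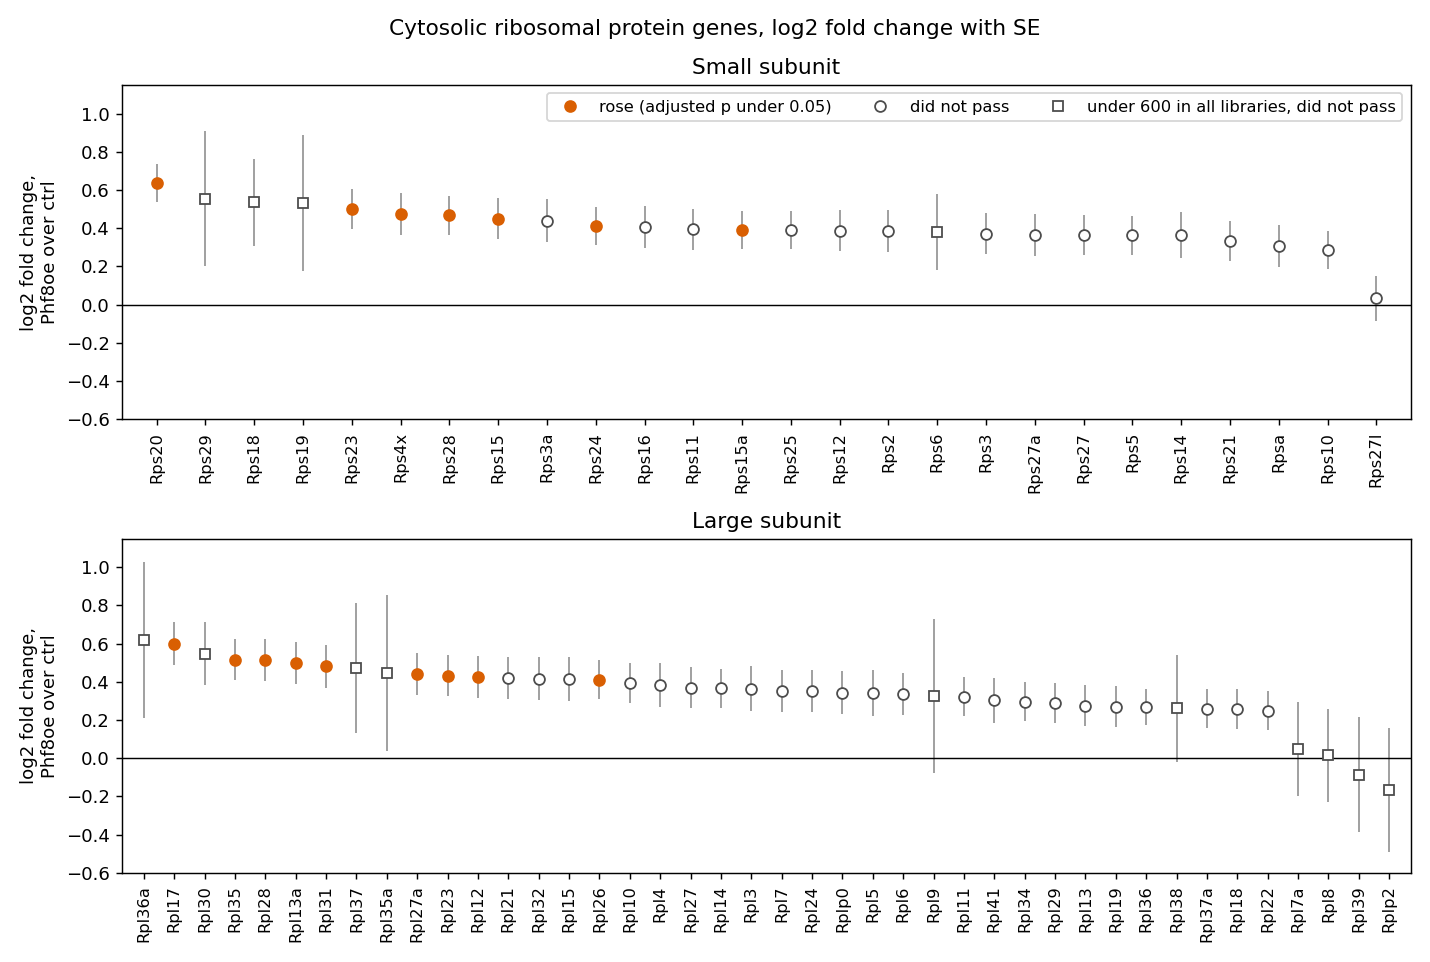
Log2 fold change of Phf8oe over ctrl with its SE for the ribosomal protein genes reported here, small subunit above and large subunit below, ordered by size. Filled points are genes that rose, and squares are the 14 genes under 600 normalized counts in all libraries, whose errors are wide.

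The members took 3.57% and 3.81% of all values in the Phf8oe libraries and 2.71% and 3.03% in the ctrl libraries. Leaving out the mitochondrially encoded genes, which also took more of Phf8oe (5.34% and 4.76%, against 3.68% and 3.62% in ctrl), the shares were 3.77% and 4.01% in Phf8oe and 2.81% and 3.15% in ctrl. The groups did not overlap in either share, with 2 libraries each. The replicates of a group differed as well, in ctrl in the same direction for nearly all members. In ctrl, replicate 2 lay above replicate 1 in 66 of 71 members with a median log2 difference of 0.15, against 49.7% of all tested genes with a median of 0. In Phf8oe, replicate 2 lay above replicate 1 in 53 of 71 members with a median of 0.08, against 50.4% of all tested genes with a median of 0.004. Since most members also moved together between the ctrl libraries, their 71 values are not 71 independent observations of the group difference.

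**Figure D2:**
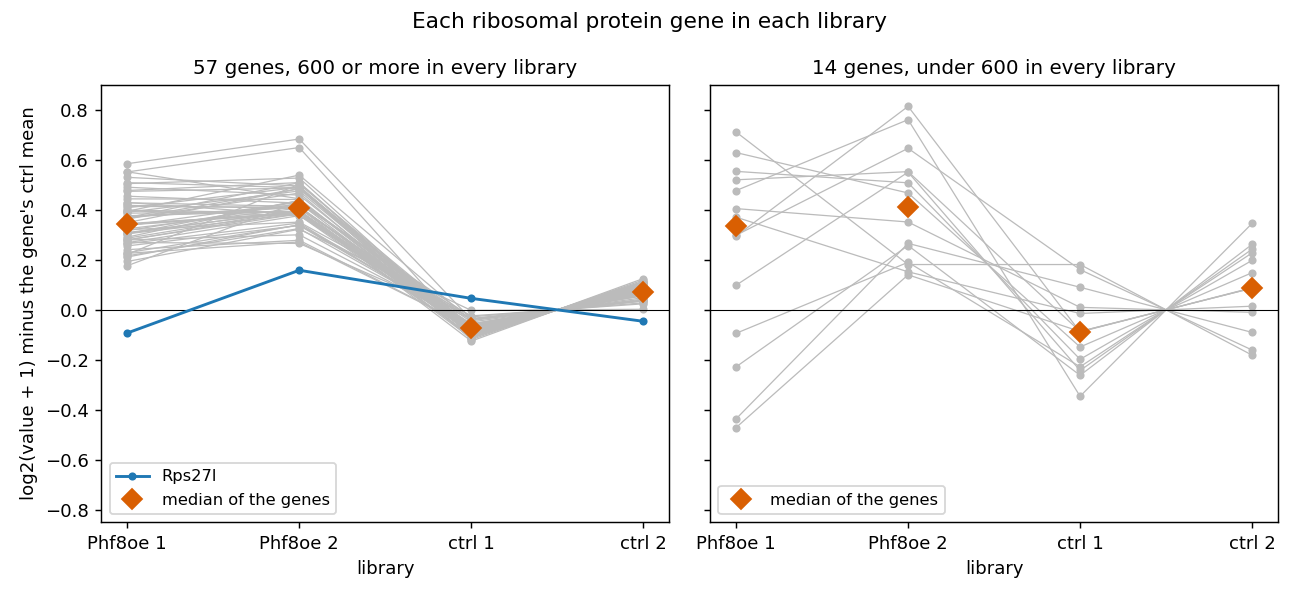
Each gene's log2(value + 1) in each library, less its own mean over the ctrl libraries; a line joins the values of a gene and diamonds are the medians over genes. Among the 57 genes at 600 or more (left) Rps27l is the gene that does not lie higher in both Phf8oe libraries; the 14 low genes (right) scatter widely.

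Rps20, a protein of the small subunit's head, had the smallest p of the members. It had 10198 and 10921 normalized counts in Phf8oe and 6621 and 6983 in ctrl (log2 fold change 0.63, SE 0.10, limma adjusted p = 0.009), a 1.55-fold difference that ranged from 0.58 to 0.68 on the log2 scale as libraries were left out. The replicates differed by less than 0.1 on that scale in either group, so the groups stood well apart. Even so, its adjusted p was 0.183 without ctrl replicate 1.

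The next by p were Rpl17 and Rpl35, both genes of the exit tunnel. Rpl17, which lines the tunnel, had 10999 and 11770 normalized counts in Phf8oe and 6940 and 8112 in ctrl (1.52-fold). Rpl35, at the tunnel mouth where factors meet the new chain, had 26165 and 26574 in Phf8oe and 17278 and 19671 in ctrl (1.43-fold). In both genes the ctrl libraries differed from each other by more than the Phf8oe libraries did. Rpl31, also at the rim, had 25751 and 25993 in Phf8oe and 17069 and 20136 in ctrl (log2 fold change 0.48), and Rpl26, a rim protein that carries the modifier Ufm1, had 21322 and 21145 in Phf8oe and 15312 and 16633 in ctrl (1.33-fold). These 4 rose, of 7 tunnel and rim genes (57.1%, against 25.4% of all members and 2.99% of all tested genes). Among the members Rpl31 ranked 10 and Rpl26 14 by p. The other tunnel genes ranked lower, at 35 (Rpl4), 55 (Rpl19) and 68 (Rpl39). Rpl4, which reaches into the tunnel, had 47580 and 48192 in Phf8oe and 33884 and 39644 in ctrl, and Rpl19 had 26172 and 28225 in Phf8oe and 21566 and 23533 in ctrl. Both had groups that did not overlap but did not pass (adjusted p = 0.0733 and 0.148). The seventh, Rpl39, was counted at 58 and 95 in Phf8oe and 84 and 74 in ctrl, where the groups overlapped.

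In the small subunit 8 of 28 rose (28.6%, against 2.99% of all tested genes), with a median log2 fold change of 0.39. Rps23, which touches the decoding site, had 26036 and 25680 normalized counts in Phf8oe and 17361 and 19284 in ctrl (log2 fold change 0.50, SE 0.11, adjusted p = 0.0266). Rps15, whose tail reaches towards the decoding site, had 31412 and 33244 in Phf8oe and 22587 and 24790 in ctrl (1.37-fold). Rps28, beside the path by which the message leaves, had 10549 and 11664 in Phf8oe and 7790 and 8269 in ctrl (1.38-fold). In all 3 both Phf8oe libraries stood above both ctrl libraries, and in Rps28 the Phf8oe libraries themselves differed by 0.14 on the log2 scale. Rps4x, encoded on the X chromosome, had 28268 and 27656 in Phf8oe and 18905 and 21409 in ctrl (1.39-fold). Rps24 had 15526 and 15491 in Phf8oe and 11187 and 12142 in ctrl (1.33-fold). Rps15a rose as well, at 9252 and 9499 in Phf8oe and 6842 and 7474 in ctrl (1.31-fold).

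Other small subunit genes lay higher by much the same amount without passing. Rps2 and Rps3, at the channel by which the message enters, had log2 fold changes of 0.38 and 0.37 (SE 0.11 each), Rps2 with 81897 and 87384 in Phf8oe and 62679 and 67057 in ctrl. Rps16, which reaches the P site, had 52538 and 50782 in Phf8oe and 36789 and 41371 in ctrl (adjusted p = 0.0575). Rps3a stood just outside the threshold, at 31420 and 34619 in Phf8oe and 22881 and 25868 in ctrl (adjusted p = 0.0501), and Rps25 likewise (0.0502). The division into called and not called members therefore separates genes of nearly equal change: the last to pass, Rpl12, had a log2 fold change of 0.42 and the next gene, Rps3a, 0.44. Rpsa, the ribosomal protein also known as a laminin receptor, had 57253 and 60615 in Phf8oe and 45287 and 50131 in ctrl (log2 fold change 0.31), and Rps10 had 7787 and 8409 in Phf8oe and 6486 and 6810 in ctrl (0.28). Rps27a, made as a fusion with ubiquitin, had 12461 and 13198 in Phf8oe and 9229 and 10732 in ctrl (0.37). In 27 of the 28 small subunit genes both Phf8oe libraries lay above both ctrl libraries, as in 28.9% of all tested genes.

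In the large subunit 10 of 43 rose (23.3%, against 2.99% of all tested genes), with a median log2 fold change of 0.36. Besides the tunnel genes, Rpl28 had 17679 and 17260 normalized counts in Phf8oe and 11376 and 13172 in ctrl (log2 fold change 0.51, SE 0.11, adjusted p = 0.028). Rpl13a, which in human cells also takes part in silencing inflammatory messages, had 32714 and 30356 in Phf8oe and 20917 and 23788 in ctrl (1.41-fold). Rpl27a had 17900 and 17562 in Phf8oe and 12215 and 13964 in ctrl (1.36-fold). In these 3 genes Phf8oe replicate 1 was the higher of its group, the reverse of most members. Rpl23 and Rpl12, the second of which lies at the base of the stalk, rose by 1.35-fold and 1.34-fold.

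None of the 3 genes for proteins around the peptidyl transferase centre passed (2 higher and none lower at an unadjusted p under 0.05, none with limma-voom); Rpl8 is among the low genes described further on. Rpl3 had 76706 and 84918 in Phf8oe and 58916 and 66713 in ctrl (log2 fold change 0.36, adjusted p = 0.0928), and Rpl10, which joins the subunit late, had 21172 and 21765 in Phf8oe and 15488 and 17265 in ctrl (0.39, adjusted p = 0.0555). Of the proteins that travel with the 5S RNA and can bind the p53 regulator Mdm2, Rpl5 had 35600 and 38470 in Phf8oe and 26758 and 31830 in ctrl, and Rpl11 had 17183 and 18520 in Phf8oe and 13914 and 14620 in ctrl (log2 fold changes 0.34 and 0.32). Rplp0, the anchor of the stalk, had 86969 and 91877 in Phf8oe and 67055 and 73970 in ctrl (0.34). In all 5 genes both Phf8oe libraries lay above both ctrl libraries, as in 28.9% of all tested genes, with adjusted p from 0.0555 to 0.11. The smallest changes among the well counted large subunit genes were those of Rpl22 (9292 and 9590 in Phf8oe, 7561 and 8346 in ctrl), Rpl18 and Rpl37a, at 0.25 to 0.26.

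A partial list of 7 members mutated in Diamond-Blackfan anaemia in humans, a failure of red cell production caused by loss of ribosomal proteins, was taken, and other members are mutated in it too. Of the 7, Rps24 rose (14.3%, against 2.99% of all tested genes), and all 7 lay higher, from 0.28 to 0.53 on the log2 scale. The highest, Rps19, had only 18 to 31 normalized counts and an SE of 0.35. In Rpl35a, at 13 to 25 normalized counts, the groups overlapped. Median log2 fold changes by role lay close together: the 2 genes of the 5S RNA particle lay at 0.33, the 3 of the stalk and its base at 0.34, the 2 genes of the message entry channel lay at 0.38, the 4 of the decoding and P sites at 0.47, the 3 of the exit platform at 0.36, the 4 of the head and beak at 0.38 and the 7 of the tunnel at 0.41.

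**Figure D3:**
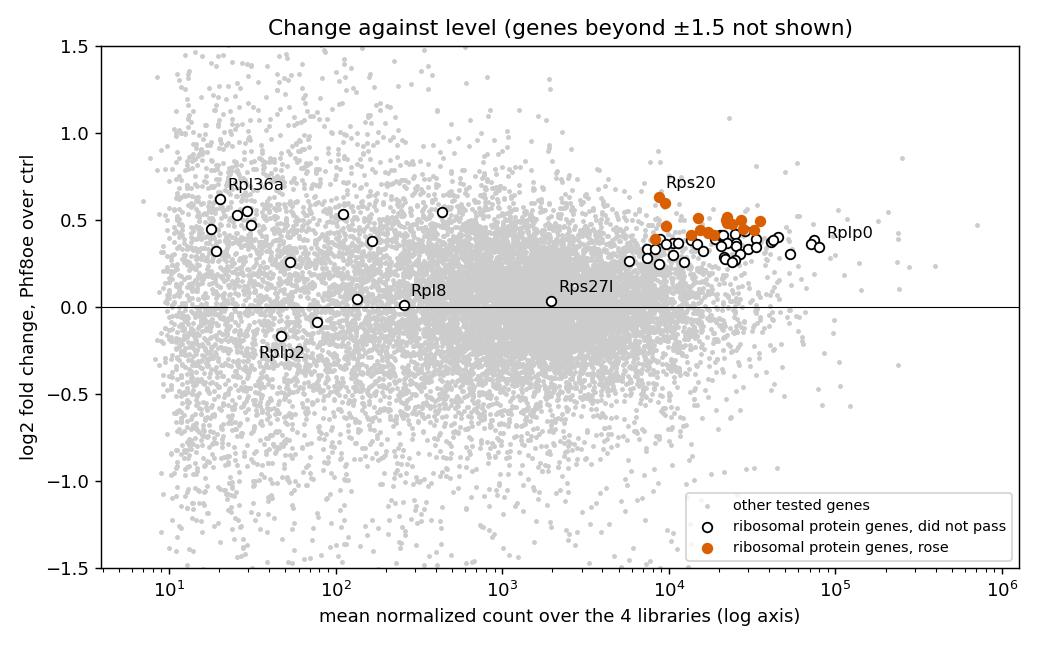
Log2 fold change against the mean normalized count (log axis) of all tested genes, with the ribosomal protein genes drawn large. The members form a tight band at high levels, the 14 low members lie apart on the left, and Rps27l stands alone between them near 0.

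The exception among the well counted genes was Rps27l, the paralogue of Rps27 that p53 induces in human cells. Rps27l had 1813 and 2158 normalized counts in Phf8oe and 1996 and 1873 in ctrl (log2 fold change 0.03, SE 0.12, adjusted p = 0.889), and the groups overlapped. Rps27 had 11741 and 12075 in Phf8oe and 8737 and 9777 in ctrl (log2 fold change 0.37, adjusted p = 0.0635), and the groups did not overlap. The ratio of Rps27 to Rps27l was 6.48 and 5.60 in Phf8oe and 4.38 and 5.22 in ctrl, without overlap. An exact two-sided permutation test gave p = 0.333, the smallest that 2 libraries against 2 allow, so it cannot decide the question. Leaving out a library moved Rps27l between -0.09 and 0.16 on the log2 scale. The paralogue pairs with a partner outside the name rule gave no shared pattern. Rpl22l1, which Rpl22 represses in mice, had 949 and 1144 in Phf8oe and 882 and 874 in ctrl, and the Rpl22 to Rpl22l1 ratio overlapped between the groups (9.79 and 8.38 in Phf8oe, 8.57 and 9.55 in ctrl; exact p = 1.0). Rpl7l1 had 3545 and 4085 in Phf8oe and 4118 and 3937 in ctrl, while Rpl7 had 27561 and 29267 in Phf8oe and 21100 and 23452 in ctrl. The ratio of Rpl7 to Rpl7l1 was 7.77 and 7.16 in Phf8oe and 5.12 and 5.96 in ctrl, without overlap (exact p = 0.333, again the smallest possible).

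A set of 14 members was counted at a tiny fraction of the others, from 12 to 546 normalized counts, while the lowest of the remaining 57 was Rps27l and the next had a mean of 5789. None of the 14 passed the test (2 at an unadjusted p under 0.05, both higher, and none with limma-voom). These were Rpl7a, Rpl8, Rpl9, Rpl30, Rpl35a, Rpl36a, Rpl37, Rpl38, Rpl39, Rplp2, Rps6, Rps18, Rps19 and Rps29. Rps6, the substrate of the S6 kinases, had 191 and 184 in Phf8oe and 145 and 143 in ctrl, and Rpl30 had 546 and 488 in Phf8oe and 318 and 391 in ctrl. Groups did not overlap in these genes, and in 8 of the 14 in all both Phf8oe libraries lay above both ctrl libraries (28.9% of all tested genes). Rpl36a had 22 and 27 in Phf8oe and 12 and 20 in ctrl, Rps29 had 29 and 42 in Phf8oe and 22 and 25 in ctrl, and Rps19, the most often mutated gene of Diamond-Blackfan anaemia, had 31 and 30 in Phf8oe and 18 and 24 in ctrl. Their log2 fold changes were 0.62, 0.55 and 0.53, but each had an SE of at least 0.35. Rpl35a (25 and 17 in Phf8oe, 17 and 13 in ctrl), Rpl9 (18 and 25 in Phf8oe, 14 and 20 in ctrl), Rplp2 (35 and 54 in Phf8oe, 46 and 52 in ctrl), Rpl39, Rpl7a (123 and 150 in Phf8oe, 112 and 154 in ctrl) and Rpl8 (214 and 300 in Phf8oe, 209 and 301 in ctrl) overlapped between the groups. Leaving out a library turned the sign of Rplp2, Rpl39, Rpl7a and Rpl8. All 18 risers lay among the 57 well counted genes, and in 56 of these both Phf8oe libraries lay above both ctrl libraries.

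Copies of the members elsewhere in the genome may bear on these values, which was not tested. RefSeq lists 983 symbols on GRCr8 that are a member's name followed by a pseudogene or like suffix, for 70 of the 71 members, with a median of 15 per low member (5 to 27) and 13 per well counted member (0 to 36); Rps27l has none. The deposited table itself holds further rows of this kind. Rps18 had 130 and 133 in Phf8oe and 85 and 96 in ctrl, while the row Rps18l1 had 28087 and 28454 in Phf8oe and 21291 and 23358 in ctrl, the level of an ordinary member, with a log2 fold change of 0.34 (adjusted p = 0.0780). Rpl36a stood beside Rpl36al, which had 9191 and 9260 in Phf8oe and 6053 and 7298 in ctrl and rose (0.47, adjusted p = 0.0393). Rps10l1 (5783 and 5324 in Phf8oe, 4005 and 4216 in ctrl) and a second Rps27a row (3467 and 2690 in Phf8oe, 1903 and 2147 in ctrl) rose too. Other such rows did not pass: a second Rpl7a row lay lower in both Phf8oe libraries (95 and 125 in Phf8oe, 128 and 181 in ctrl; log2 fold change -0.48, adjusted p = 0.277), and the groups overlapped in Rpl35al1 (51 and 79 in Phf8oe, 62 and 51 in ctrl) and in a second Rpl32 row (123 and 181 in Phf8oe, 140 and 140 in ctrl). No source used here says how the counting split reads between a gene and its copies, so levels of single members, and above all of the 14 low ones, are uncertain. On GRCr8 7 members overlap another tested gene, among them the risers Rps23, Rpl31 and Rpl27a, whose reads cannot be told apart if the counting ignored strand.

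Since many members differed by a like amount, the letters at their starts were read from RefSeq (build GRCr8), where 57 of the 71 had an entry and 56 had a single one, Rps27a having more. A C at the annotated first base followed by at least 4 C or T, the form of a TOP tract, was found in 20 of 56 members (35.7%) and in 2.63% of all 33469 promoters in the table. A run of at least 8 C or T within 20 bases on either side of the start was found in 39 members (69.6%) and in 15.5% of all promoters. Within the members the median log2 fold change was 0.38 in the 20 with the start tract and 0.37 in the 36 without it. It was 0.37 with the longer run and 0.38 without. The start tract was read at the annotated first base, so the 36 include Rps23 and Rpl13a, which have long runs near the start. This split therefore cannot show whether the tract goes with the change. The windows of 10 bases before and 20 bases from the start are shown for 7 genes that rose, then for Rplp0 and for the Rps27 pair, 5′ to 3′ on the gene's strand, with the longest run of C or T in the window in capitals.
Rpl17 (chr18:70856266-70856295, plus strand): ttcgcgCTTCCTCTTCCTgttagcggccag
Rpl35 (chr3:43165902-43165931, minus strand): CTTCCTCTTTCTCTCgaaccgggcggcctc
Rps23 (chr2:23814507-23814536, plus strand): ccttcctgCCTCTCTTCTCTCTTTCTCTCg
Rpl28 (chr1:78083513-78083542, minus strand): cccctagtgTCTTTCTTTCCgtctccggcc
Rpl31 (chr9:49143101-49143130, plus strand): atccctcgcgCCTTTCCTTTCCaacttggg
Rps15 (chr7:10068096-10068125, minus strand): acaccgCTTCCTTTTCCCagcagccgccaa
Rpl13a (chr1:104748894-104748923, minus strand): TCCTTTCCTaggcggctgccgaagatggcg
Rplp0 (chr12:46718371-46718400, minus strand): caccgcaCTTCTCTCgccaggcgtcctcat
Rps27 (chr2:177964587-177964616, minus strand): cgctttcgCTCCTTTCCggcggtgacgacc
Rps27l (chr8:76443648-76443677, plus strand): TTCatttgtcattatttgtggtgtccagag
The run was 21 letters long in Rps23 and 15 in Rpl35. It was 9 in Rps27 and 3 in Rps27l, whose annotated start is an A. Rpl13a rose although its annotated start is a G that follows the run, and an annotated start need not be the one used in CG4 cells.

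Around the start, CCGGAAG, the core bound by ETS factors, lay on either strand in 19 of 56 members (33.9%) and in 8.75% of all promoters. AAGATGGC, the core bound by YY1, lay in 5 (8.93%, against 3.17%), the E-box CACGTG, the palindrome bound by Myc, in 4 (7.14%, against 6.42%) and TATAAA in 7 (12.5%, against 14.2%), each over the 250 bases before and 50 after the start. The ETS core lay in 5 of the 15 risers searched, and the median log2 fold change was 0.36 with it and 0.39 without. The 150 bases before the start are shown for the leading risers with an entry, as Rpl35 holds the ETS core, in capitals, and Rpl17 holds none of the 4 motifs there.
Rpl35 (chr3:43165922-43166071, minus strand): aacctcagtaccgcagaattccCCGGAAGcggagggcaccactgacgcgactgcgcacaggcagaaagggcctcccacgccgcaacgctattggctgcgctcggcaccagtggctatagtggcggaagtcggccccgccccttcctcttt
Rpl17 (chr18:70856126-70856275, plus strand): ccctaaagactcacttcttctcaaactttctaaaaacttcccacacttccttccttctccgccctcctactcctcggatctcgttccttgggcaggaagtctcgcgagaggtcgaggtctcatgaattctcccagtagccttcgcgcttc
A match is a string of letters and not a binding site.

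Genes that serve the ribosome without being a part of the name rule were compared by count and median. Of the 5 other ribosomal protein genes listed, Rpl36al rose and Rack1, a scaffold on the small subunit, had 39631 and 41601 in Phf8oe and 29576 and 33245 in ctrl (log2 fold change 0.37, adjusted p = 0.0713). Of 10 genes in a list named for elongation factors none rose or fell, and none did with limma-voom. At an unadjusted p under 0.05, 4 were higher and none lower (1826 and 1952 of all 14368 tested genes). The list's median was 0.21. That median takes in Eef2k and Eef1e1, which are not elongation factors themselves (0.17 and 0.19). It also takes in Eef1a2, which was barely counted (12 and 10 in Phf8oe, 19 and 18 in ctrl). The abundant ones varied. Eef2, the translocase, had 263541 and 277449 in Phf8oe and 192601 and 221455 in ctrl (0.39, adjusted p = 0.086), and Eef1g had 60944 and 57404 in Phf8oe and 43356 and 46817 in ctrl (0.39, adjusted p = 0.0590). Eef1a1, which brings the charged transfer RNAs and is the most abundant of the list, had 298299 and 295365 in Phf8oe and 235700 and 271316 in ctrl (0.23, adjusted p = 0.267), and Eef1d and Eif5a lay at 0.27 and 0.20, below the members' median. Of 17 other genes known for a TOP tract, which include several of these, none rose, 16 lay higher and Vim, the intermediate filament vimentin, fell (27877 and 34179 in Phf8oe, 60554 and 56563 in ctrl; -0.92, adjusted p = 0.00584). At an unadjusted p under 0.05, 11 of the 17 were higher and 1 lower (1826 and 1952 of all 14368 tested genes). Limma-voom called none of the 17 higher and 1 lower, and their median was 0.31.

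Regulators and assembly factors lay nearer to the body of all genes. Of 36 initiation factor and poly(A) binding protein genes 1 rose (2.78%, against 2.99% of all tested genes). It was Pabpc4 (11338 and 12480 in Phf8oe, 9147 and 8813 in ctrl). The list's median was 0.06, and 22 lay higher and 14 lower. Of 23 mTORC1 and Myc genes 1 rose (4.35%, against 2.99% of all tested genes). It was Eif4ebp1, the brake on cap binding that mTORC1 releases, at 3743 and 3677 in Phf8oe and 2341 and 2797 in ctrl (log2 fold change 0.54, SE 0.11, adjusted p = 0.0266). Myc itself had 20571 and 23868 in Phf8oe and 20022 and 22052 in ctrl, and Larp1 had 8013 and 8167 in Phf8oe and 7775 and 7468 in ctrl; the list's median was 0.005. None of 7 ribosomal protein chaperone genes passed (none at an unadjusted p under 0.05 and none with limma-voom, median 0.07). Of 39 ribosome biogenesis genes 1 rose (2.56%), Nop10, with a median of 0.08. At an unadjusted p under 0.05, 7 initiation genes were higher and 2 lower, and 7 biogenesis genes were higher and 1 lower. In the mTORC1 and Myc list 1 was higher and 2 lower, against 1826 and 1952 of all 14368 tested genes.

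**Figure D4:**
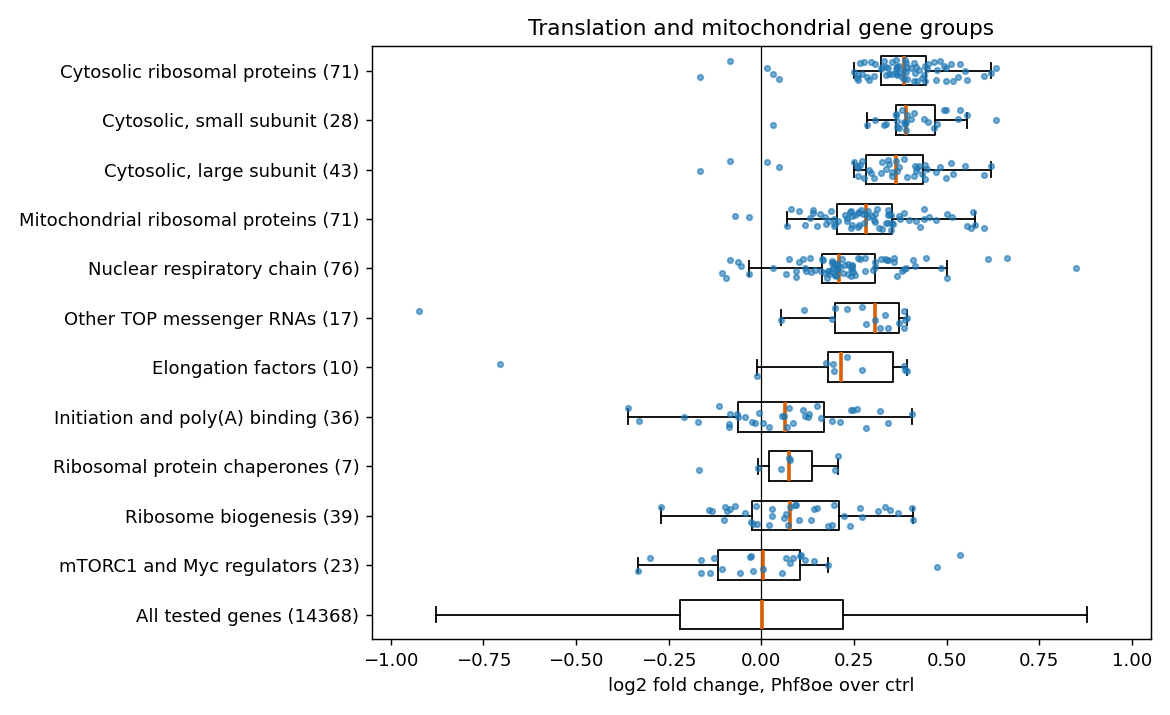
Log2 fold changes of Phf8oe over ctrl by gene group, with the number of tested genes; points are genes, boxes span the quartiles, orange lines are medians and whiskers reach up to 1.5 times the box; for all tested genes the points are left out. Cytosolic ribosomal proteins lie at a median of 0.38, mitochondrial ones at 0.28 and all tested genes at 0.003; the TOP and elongation lists share genes, as do others.

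Mitochondrial gene groups also lay higher. Of 71 mitochondrial ribosomal protein genes 11 rose (15.5%, against 2.99% of all tested genes) and none fell, with a median log2 fold change of 0.28. At an unadjusted p under 0.05, 47 were higher and none lower (1826 and 1952 of all 14368 tested genes). Limma-voom called 12 higher and none lower. Of the 71, 69 lay above 0, and in 63 both Phf8oe libraries lay above both ctrl libraries (28.9% of all tested genes), much as in the cytosolic members. Of 76 nuclear respiratory chain genes 5 rose (6.58%) and none fell, with a median of 0.21. The median log2 difference of ctrl replicate 2 over replicate 1 was 0.15 in the cytosolic members, 0.11 in the other TOP genes, 0.03 in the mitochondrial ribosomal proteins and -0.02 in the respiratory chain. No test was made between the groups.

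Gene span moved with the change as well. From the lowest to the highest of 5 classes of mean value, the other tested genes had median log2 fold changes between -0.02 and 0.03, with 1.32% rising in the lowest class and 7.08% in the highest. Among the other tested genes, those spanning under 5 kb in GRCr8 had a median log2 fold change of 0.09 (1431 genes, of which 3.84% rose and 2.59% fell), and those of 100 kb or more had -0.14 (1861 genes, of which 3.39% rose and 11.5% fell). Of the members, 57 of 71 span under 5 kb. The 134 other genes that both span under 5 kb and average 5000 or more had a median of 0.16, and 6.72% of them rose. In those 134 genes the median difference of ctrl replicate 2 over replicate 1 was -0.04, against 0.15 in the members. Of the tested genes 87.4% could be placed, and the part of gene size in the result was not tested further.

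**Figure D5:**
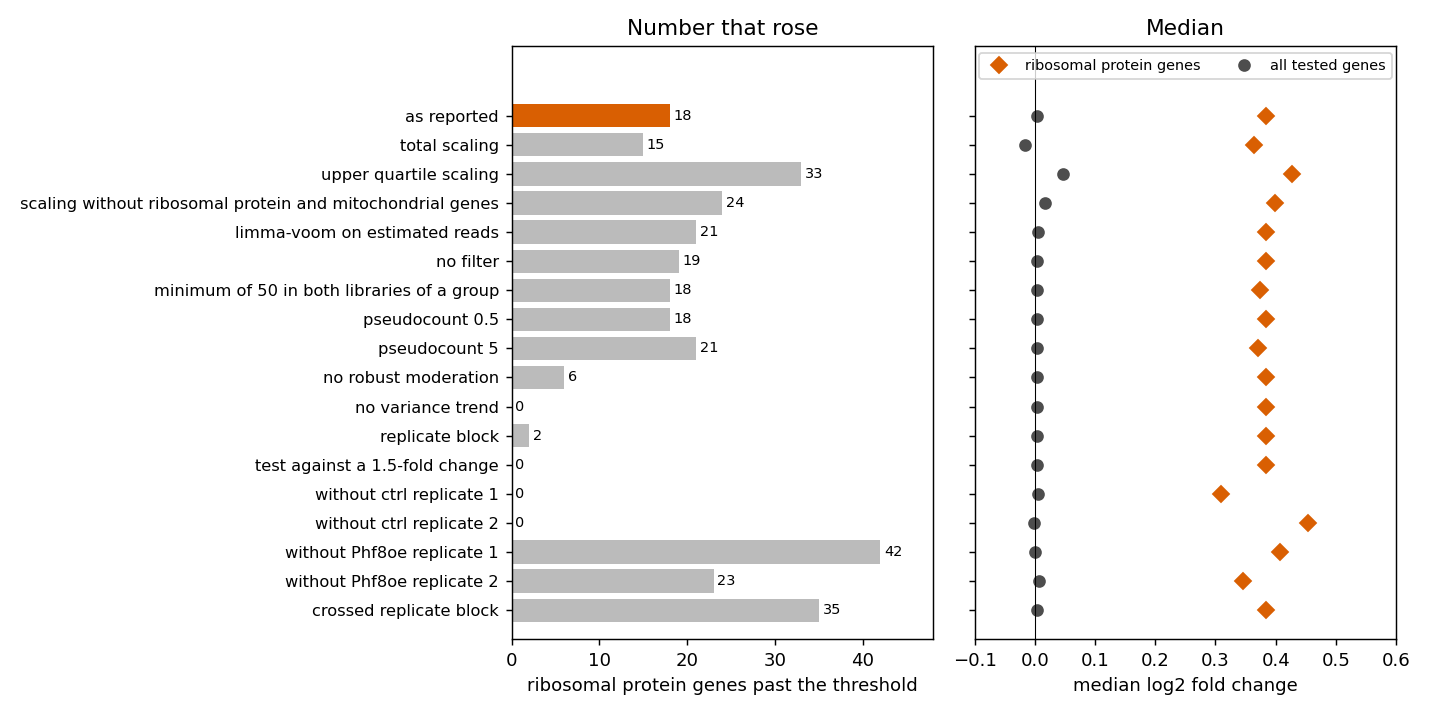
Left, the number of ribosomal protein genes past the threshold under each setting; right, the median log2 fold change of the members (diamonds) and of all tested genes (circles). The count runs from 0 to 42 while the members' median stays between 0.31 and 0.45.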

How the data were processed

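RNA-seq libraries of 4 CG4 cultures were analysed, 2 Phf8oe and 2 ctrl. The submitters' processing notes list STAR 2.5.2b, Trimmomatic 0.36, bcl2fastq 2.20 and DESeq2, and name rn6 and Rnor_6.0 as builds. No source used here names the gene counter, the annotation release or the strand setting. The deposited signal is read as gene counts scaled per library and rounded by the authors, although the labels call it raw: in Phf8oe replicate 2 the 85 whole numbers between 10 and 300 that such scaling skips were all absent.

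Genes that reached 10 or more in 2 or more libraries were tested with limma (version 3.58.1, R 4.3.3) after adding 1 and taking log2, which understates the fold change of low genes. Group was the only term, the variance moderation followed the level and was robust, and two-sided p-values were adjusted over all tested genes (Benjamini-Hochberg, threshold 0.05). The procedure was tested on simulated data. Other scalings, filters, pseudocounts, moderation, limma-voom, replicate blocks, a minimum fold of 1.5 and the omission of single libraries were tried as alternatives.

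The members, the gene lists and the rule for named genes were chosen with earlier results of these data known. Named were the 12 members with the smallest p, the 4 with the highest and the 4 with the lowest log2 fold change, the 4 with the lowest mean, the 3 whose replicates differed most and those with a paralogue in the table. Members ranked by level per coding length were also planned, but coding lengths were not used here. Single values of a few genes are not reported here, though counts and medians include them. Other members were named for their role after their values were seen. Sequences are from the RefSeq promoter table on GRCr8, which is not the build of the counts.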

Additional observations from a re-analysis of the deposited data

How the results depend on the processing

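The members' direction was steadier than their calls. Scaling moved the median of all genes by at most 0.05. Genes called in Phf8oe against ctrl numbered 0 with no variance trend, 27 against a 1.5-fold change and 373 with the replicate block, and the members that rose numbered 0, 0 and 2 in the same fits, 6 without robust moderation and 33 with upper quartile scaling. Equal replicate numbers deviated against each other (r = -0.13), so the crossed pairing was added after seeing the data, with 2354 genes called and 35 members that rose. With each library left out in turn, genes called ranged from 20 to 2145, members that rose from 0 to 42 and the members' median from 0.31 to 0.45. List medians ranged from -0.0151 to 0.11 for initiation factors, from 0.23 to 0.27 for elongation factors, from 0.24 to 0.34 for mitochondrial ribosomal proteins and from 0.19 to 0.24 for the respiratory chain. With upper quartile scaling the medians were 0.11 for initiation factors, 0.0492 for mTORC1 and Myc genes and 0.25 for the respiratory chain. Genes near 0 changed sign as libraries were left out: Rplp2 ran from -0.47 to 0.14, Rpl39 from -0.44 to 0.27, Rpl7a from -0.18 to 0.28, Rpl8 from -0.25 to 0.28 and Rps27l from -0.0928 to 0.16 on the log2 scale, and Rpl8 was at -0.0054 with total scaling. The cause was not tested. Low counts limit the 14 members under 600.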
